A study of Mus musculus with 5 samples.

Results

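Among the 21758 protein-coding rows of the expression table (21835 rows in all), 27 genes reached at least 1 CPM (read counts scaled to a common library total) in both control samples of lung cancer-associated fibroblasts (CAFs) and stayed under 0.5 CPM in each of the 3 samples overexpressing miR-200. These 27 genes, switched off in the sense of this cut, are described here gene by gene. Murine lung CAFs were transduced with a lentiviral pLVX-Neo vector that expresses miR-200b, miR-429 and miR-200a (CAF-200, 3 samples) or, per the study's methods, with the empty vector (CAF-vec, 2 samples), and both were selected with G418 for over 2 weeks. The control label calls the CAF-vec cells WT control. For the miR-200 construct the study's methods name another vector, pLVX-Hyg, and call the infected cells lung fibroblasts, while its Results name CAFs. RNA of the cultured cells was sequenced as stranded mRNA libraries, and the comparison asked which transcripts differ once miR-200 is present in CAFs. Both groups derive from what the labels call a single CAF line, grown as transduced and drug-selected cultures without tumour cells in the RNA samples. Nothing in the labels says that replicates came from separate cultures, so the spread between them may be technical.

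MicroRNAs are short RNAs that guide Argonaute proteins to messenger RNAs, chiefly through pairing of their seed, the bases near the 5′ end, with the 3′ untranslated region (3′-UTR), which lowers the stability and translation of the target. The miR-200 family holds epithelial cells in their epithelial state by repressing the transcription factors ZEB1 and ZEB2, and its level is low in mesenchymal cells such as fibroblasts. CAFs are the fibroblasts of the tumour stroma, which lay down matrix and secrete factors that act on cancer cells, macrophages and vessels.

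The mature sequences of the 3 introduced microRNAs (RefSeq, GRCm38.p6, minus strand of chromosome 4) are printed 5′ to 3′ because their seeds define the sites searched in the 27 genes. Capitals mark the seed, bases 2 to 8. miR-200b and miR-429 share a seed, and miR-200a differs from them inside it.
mmu-miR-200b-3p: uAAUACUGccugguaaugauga
mmu-miR-429-3p: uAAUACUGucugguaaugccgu
mmu-miR-200a-3p: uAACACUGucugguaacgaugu

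All 27 genes had an annotated 3′-UTR (GENCODE M21, GRCm38), and the longest one of each gene was searched for the 7-base complement of a seed. Not 1 of the 27 held CAGTATT, the site of miR-200b and miR-429, whereas 1898 of the 12060 protein-coding genes tested that have a 3′-UTR did (15.7%). The site of miR-200a, CAGTGTT, was present in 7 of the 27 (25.9%) and in 20.9% of those 12060 genes. A match to either seed was therefore present in 25.9% of the members, in 30.3% of the genes tested, in 26.3% of the 949 other genes at the members' level in CAF-vec, in 25.4% of the 268 other genes called lower in CAF-200 and in 29.6% of the 287 genes called higher. These shares are descriptions of the annotation with no test, and a match is not evidence of binding. The search itself found 5 sites of miR-200b and miR-429 and 4 of miR-200a in *Zeb1* and the same numbers in *Zeb2*, the classic targets of the family. *Nrp2*, another published target, held no such match to either seed in its longest annotated 3′-UTR of 3325 bases. The paper cloned part of the *Nrp2* 3′-UTR with predicted miR-200 sites, and reports lower reporter activity with miR-200 mimics. With every annotated 3′-UTR of a gene searched, a match to either seed was present in 25.9% of the members and 31.7% of the genes tested. Matches to fewer bases of a seed, also those followed by an A, were not searched, either in *Nrp2* or in the members.

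The 7 genes with a miR-200a site were *Perp*, *Vwc2*, *Slc22a23*, *Rnf144b*, *Aloxe3*, *Nr4a3* and *Slc17a6*. *Perp* held 2 sites, at bases 524 and 864 of a 3′-UTR of 1197 bases, and the others 1 each. The *Slc22a23* site, at base 2154 of 3796, was the single site followed by an A, which makes it an 8-base match (1 of 27 members, 3.70%, against 8.42% of the genes tested). The windows below show the *Perp* sites as the pair in 1 transcript, the *Slc22a23* site as the longest match, and the site of *Vwc2*, the gene with the lowest values in CAF-200. Each window is 30 bases of the sense strand with the 7 bases opposite the seed in capitals.
Perp, seed match at chr10:18856400-18856406, plus strand: catttgtgagaatttttagtCAGTGTTttg
Perp, seed match at chr10:18856740-18856746, plus strand: catcctaggagaagacatggCAGTGTTtct
Slc22a23, seed match at chr13:34180794-34180800, minus strand: gaacactaggccaatgcagaCAGTGTTaat
Vwc2, seed match at chr11:11262403-11262409, plus strand: agacatctcaggaatcagcaCAGTGTTcct

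Long 3′-UTRs hold more matches by their length alone, so the members were also read by length. In the shortest quartile of 3′-UTRs (up to 507 bases) 1 of 9 members had a match, beside 5.73% of the genes in that quartile. In the next quartile 0 of 6 members had one, beside 18.3%. In the quartile from 1175 to 2286 bases 3 of 5 did, beside 35.2%, and among the longest 3 of 7 did, beside 61.9%. The longest 3′-UTRs without any match were those of *Clic5* (4791 bases), *Galnt15* (3905), *Epb41l4b* (3762) and *Stxbp6* (3370). Per kilobase of 3′-UTR the members held 0.187 sites and the genes tested 0.281.

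**Figure D1:**
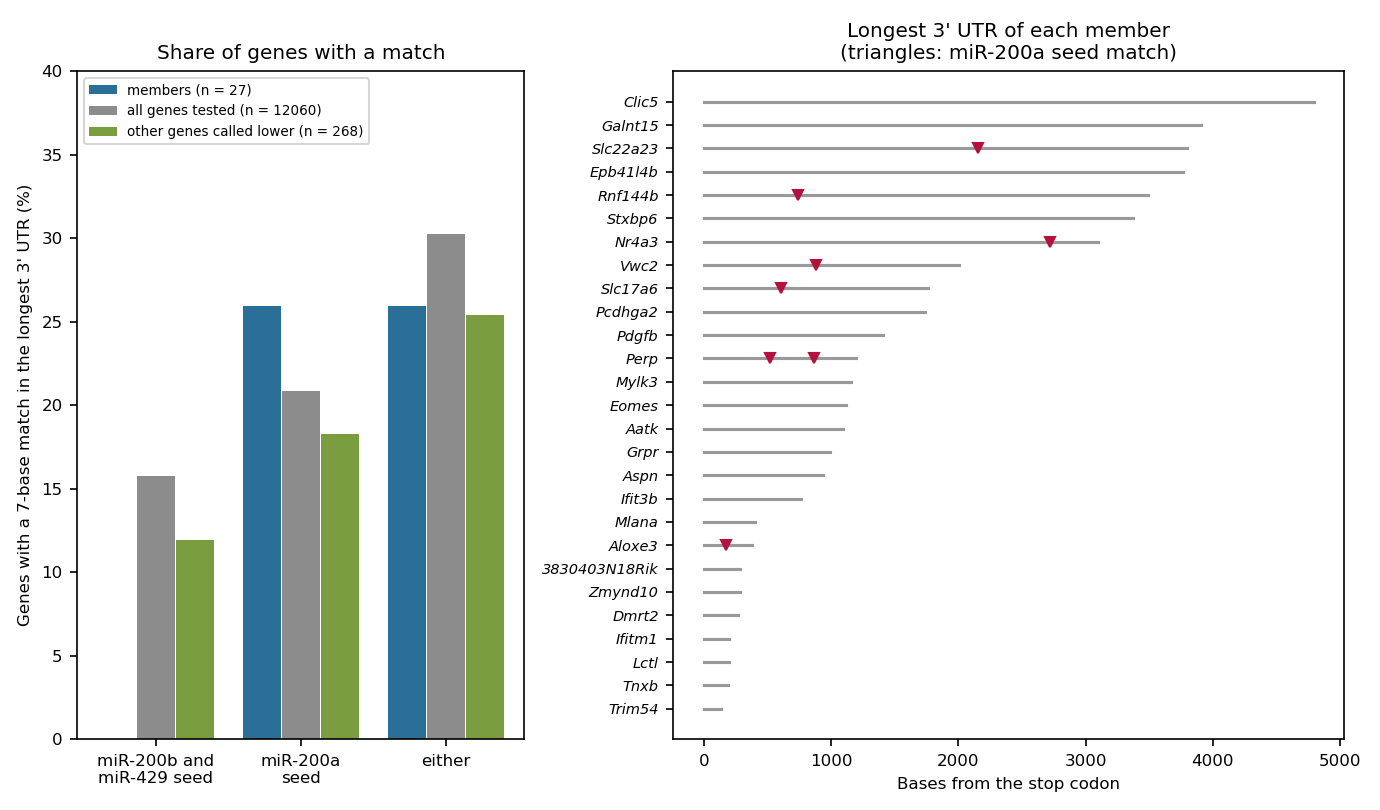
Left, percentage of genes whose longest 3′-UTR holds a 7-base match to the seed that miR-200b and miR-429 share, to that of miR-200a or to either, for the 27 members, the 12060 protein-coding genes tested and the 268 other genes called lower; right, the longest 3′-UTR of each member in bases from the stop codon, with triangles at miR-200a seed matches. No member has a match to miR-200b and miR-429, and the 8 miR-200a sites lie in 7 genes.

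The deposited values are CPM, with column sums between 999956 and 1000111, and the read totals behind them are not given in the sources used here. Between 0.005 and 0.05 CPM, 67.8% (CAF-vec 1) to 99.4% (CAF-200 1) of a sample's values lay within 0.05 steps of a whole multiple of 1 step, 0.00937 to 0.0104 CPM in size, where evenly spread values would give 10%. If a step is 1 read, which was not tested, 0.5 CPM stands for 48.1 to 53.3 reads, and the exact Poisson 95% interval around it runs from 0.369 to 0.663 CPM at its widest, for counting error only. Between 0.2 and 0.5 CPM even the best step held for 16.2% to 63.3% of the values, so whole reads could not be recovered for nearly all genes. Replicate spread was wider in CAF-vec, where the SD over genes of the log2 difference between its samples was 0.490, than in CAF-200, where the pairs gave 0.192 to 0.204. In the table a gene was at 0 either in all 3 CAF-200 samples (6127 rows) or in none of them, while 1205 rows were at 0 in a single CAF-vec sample, and 816 to 1108 values of each CAF-200 sample, but 0 in CAF-vec, lay above 0 and under 0.005 CPM; how this arose is not given in the sources used here. Of the fibroblast markers *Col1a1* was high (4613 and 2003 CPM in CAF-vec, 1719, 1599 and 1543 in CAF-200), *Dcn* was at 7.67 and 8.18 CPM and *Lum* at 3.24 and 4.02 CPM in CAF-vec, and *Fap* was at most 0.391 CPM in any sample. The defining markers of epithelium (*Epcam*, at most 0.0593 CPM), leukocytes (*Ptprc*, at most 0.0404) and endothelium (*Pecam1*, at most 0.288) were at or near 0 in every sample. Of 17 epithelial, 16 leukocyte and 10 endothelial list genes, 13, 12 and 8 stayed under 0.5 CPM in every sample. Of the other epithelial genes, *Pdpn* had 31.1 and 32.7 CPM in CAF-vec, *Aqp5* 21.3 and 25.7 and *Krt7* 7.21 and 3.13. Of the other leukocyte genes, *Cd14* had 6.70 and 4.12 CPM in CAF-vec, *Csf1r* 4.97 and 2.31 and *Cd68* 2.25 and 5.01. In bulk RNA of this kind, fewer cells of a type and less RNA per cell cannot be told apart.

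In CAF-vec the 27 genes were weakly expressed, with means from 1.03 to 3.87 CPM and a median of 1.64. In CAF-200 their means ran from 0 to 0.429 CPM with a median of 0.302, and 4 genes had a mean under 0.1, 9 between 0.1 and 0.3, and 14 above. Off therefore covers a range: *Vwc2* was listed at 0 in all 3 CAF-200 samples and the other 26 kept a measurable value. Over those 26 the CAF-vec mean was a median 5.85 times the CAF-200 mean, and it was over 10 times for 7 of them. Summed over the 27 genes, the level was 54.2 and 42.5 CPM in CAF-vec against 7.49, 7.70 and 7.02 CPM in CAF-200. Among the 11304 protein-coding genes with at least 1 CPM in both CAF-vec samples the members were 0.239%, and the mirrored cut, at least 1 CPM in all CAF-200 samples and under 0.5 in both CAF-vec samples, held 48 of 11283 genes (0.425%).

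**Figure D2:**
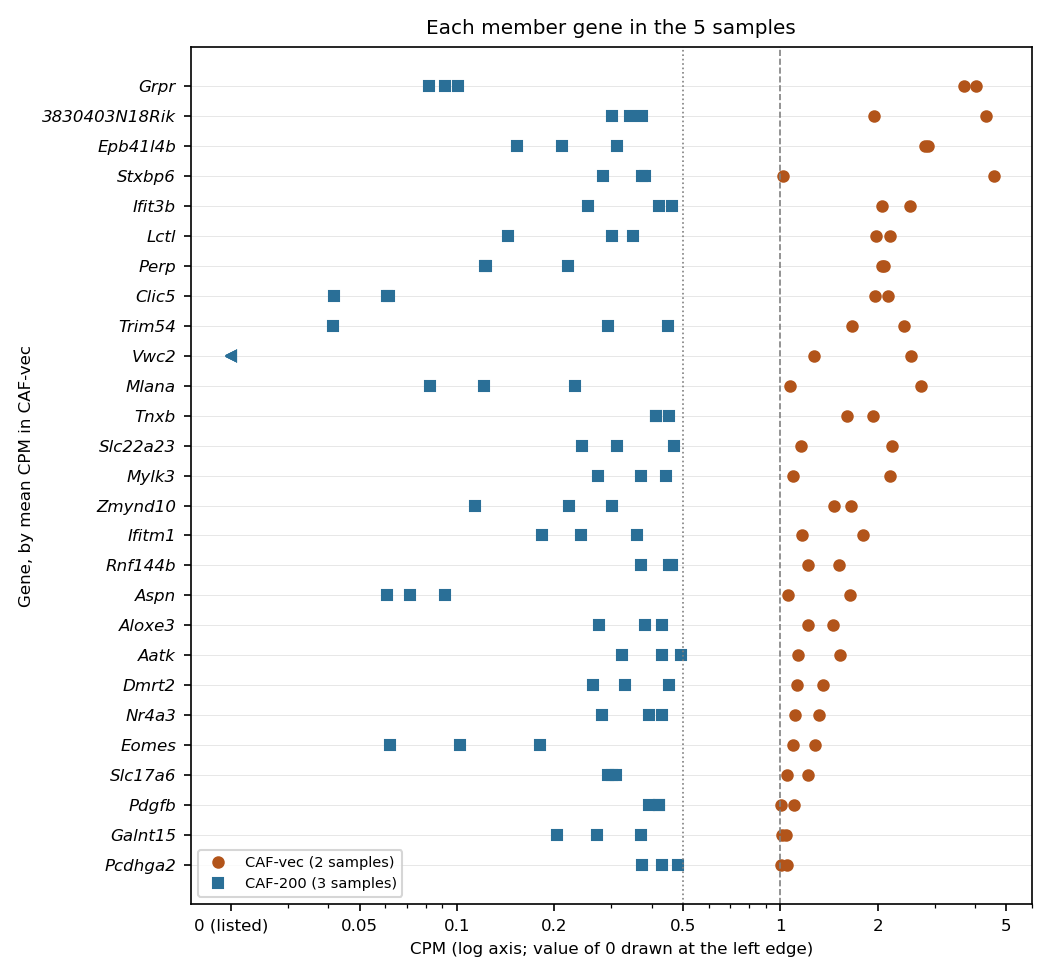
CPM of the 27 genes (log axis) in the 2 CAF-vec samples (circles) and the 3 CAF-200 samples (squares; a value of 0 is an arrow at the left), genes ordered by CAF-vec mean, with lines at the cuts of 1 CPM (dashed) and 0.5 CPM (dotted). CAF-vec values run from 1.00 to 4.56 CPM and CAF-200 values from 0 to 0.492 CPM.

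The members were chosen by their CPM in all 5 samples, so the fall of each is its definition and is given without a test. On log2(CPM + 0.5) the members' differences, CAF-200 over CAF-vec, ran from -2.88 (*Grpr*) to -0.72 (*Pcdhga2*) with a median of -1.46 (-1.41 without *Vwc2*), beside a median of -0.09 over the 12175 genes tested. This scale understates the change of genes as low as these. In the limma fit over all genes, 17 of the 27 passed the thresholds for a lower value (adjusted *p* under 0.01, Benjamini-Hochberg, and a log2 fold-change below -1), where 2.35% of all genes tested did. The same samples chose the members, so nothing is read from this count. Non-overlap of the 2 groups, which the cut forces on every member, was seen for lower values in 37.3% of all genes tested. The 10 genes outside the thresholds were *Stxbp6*, *Mlana*, *Slc22a23*, *Mylk3*, *Aatk*, *Dmrt2*, *Nr4a3*, *Pdgfb*, *Galnt15* and *Pcdhga2*. With CAF-vec 1 left out 18 members passed (325 genes lower over all genes tested, beside 286 with every sample) and with CAF-vec 2 left out 22 (955 genes). With any 1 of CAF-200 1, 2 or 3 left out limma called 0 of the 27 and 0 genes lower over all 12175, where an unadjusted *p* under 0.05 was reached by 2552, 2366 and 2316 lower genes, with all 27 members, chosen as lower on these samples, among them.

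**Figure D3:**
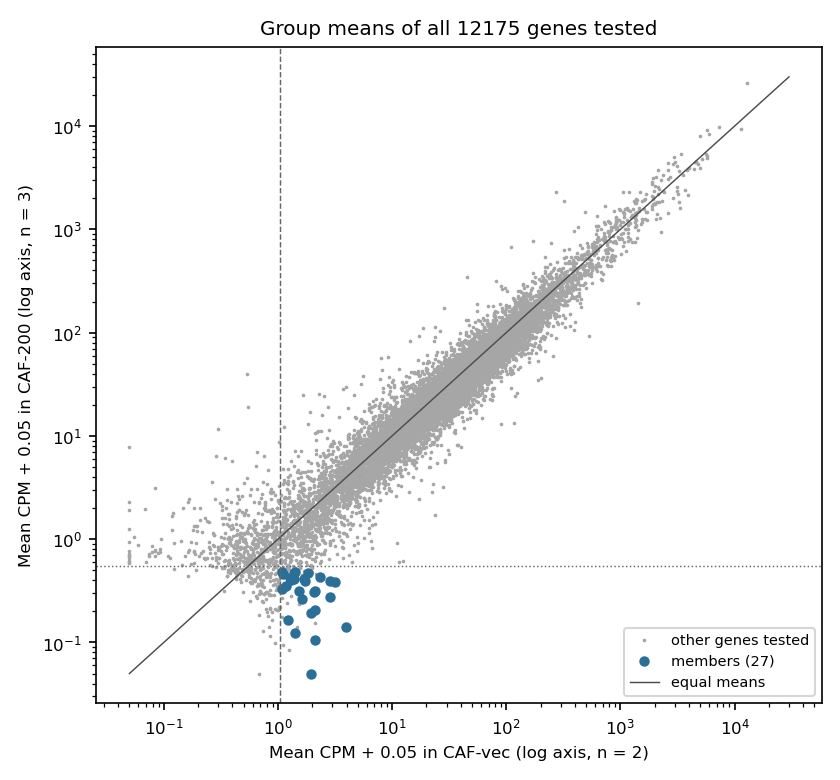
Mean CPM + 0.05 in CAF-vec (n = 2) against CAF-200 (n = 3) for the 12175 genes tested, both axes logarithmic, members in blue, the line of equal means and the cuts of 1 and 0.5 CPM drawn in. The members lie right of the 1 CPM cut in CAF-vec and below the 0.5 CPM cut in CAF-200, with CAF-vec means between 1.03 and 3.87 CPM.

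Receptors and membrane proteins held the gene with the largest fall on log2(CPM + 0.5), a scale on which the fall of *Vwc2*, at 0 in CAF-200, is set by the pseudocount. The gene with that fall, *Grpr*, on chrX:163513904-163549677, encodes the G protein-coupled receptor of gastrin-releasing peptide, the mammalian bombesin. Its level was 3.71 and 4.03 CPM in CAF-vec and 0.101, 0.0920 and 0.0818 CPM in CAF-200, a 42.3-fold difference of the means and a log2 difference of -2.88 ± 0.14 (SE). The CAF-vec samples were close to each other and the CAF-200 samples were all close to 0.1 CPM. The ligand gene *Grp* was listed at 0 in all 5 samples, and the related receptor gene *Nmbr* stayed between 0.0525 and 0.281 CPM. *Nmb*, neuromedin B, had 1.27 and 0.857 CPM in CAF-vec and 0.433, 0.664 and 0.978 CPM in CAF-200, so the groups overlapped (log2 difference -0.40 ± 0.25, limma adjusted *p* = 0.249).

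*Clic5* (chr17:44188584-44280172), a chloride intracellular channel protein that associates with ezrin-radixin-moesin proteins under the cell membrane, had 1.96 and 2.16 CPM in CAF-vec and 0.0606, 0.0415 and 0.0615 CPM in CAF-200, 37.8-fold between the means. *Perp* (chr10:18845020-18857073), a p53 effector and a component of desmosomes, had 2.06 and 2.09 CPM against 0.221, 0.123 and 0.122 CPM, 13.4-fold. The CAF-vec replicates of both genes lay closer together than the members' median. The moesin gene *Msn* was higher in each CAF-200 sample (293 and 266 CPM against 474, 459 and 532 CPM, log2 difference 0.80 ± 0.11, limma adjusted *p* = 0.00737) without reaching the fold threshold, while *Ezr* and *Rdx* overlapped between the groups. The family members *Clic1* and *Clic4* had log2 differences of -0.36 ± 0.18 and 0.24 ± 0.08. For *Perp*, the p53 gene *Trp53* had 147 and 143 CPM in CAF-vec and 204, 186 and 206 CPM in CAF-200 (log2 difference 0.45 ± 0.09, limma adjusted *p* = 0.0179), and its targets *Cdkn1a*, *Mdm2* and *Bax* had 0.31 ± 0.13, 0.07 ± 0.21 and -0.50 ± 0.17, none past the thresholds.

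*Slc22a23*, an orphan member of the organic ion transporter family, had 2.21 and 1.15 CPM in CAF-vec and 0.470, 0.244 and 0.313 CPM in CAF-200. *Slc17a6*, which encodes a vesicular glutamate transporter of neurons, had 1.22 and 1.05 CPM against 0.311, 0.293 and 0.303 CPM. *Pcdhga2*, a gamma protocadherin, had 1.00 and 1.05 CPM against 0.431, 0.482 and 0.373 CPM, the smallest fall of the 27. The *Slc22a23* samples of CAF-vec differed 1.91-fold from each other, whereas the CAF-200 samples of *Slc17a6* were nearly equal. *Pcdhga2* shares its constant exons with the rest of the gamma protocadherin cluster, so its value depends on how reads were divided among them. The 6 other *Pcdhga* genes tested had a median log2 difference of -0.37, and that median was -0.17 over the 190 *Slc* genes. The related carrier *Slc22a17*, the lipocalin 2 receptor, fell with *Slc22a23* (8.58 and 6.70 CPM against 2.81, 2.94 and 2.72 CPM, log2 difference -1.28 ± 0.14, limma adjusted *p* = 0.00395).

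*Aatk*, a membrane-anchored kinase of the lemur family, had 1.53 and 1.14 CPM in CAF-vec and 0.431, 0.324 and 0.492 CPM in CAF-200, the value nearest to the 0.5 CPM cut. *Lctl*, a member of the klotho family of glycosidases, had 1.98 and 2.18 CPM against 0.351, 0.302 and 0.143 CPM. The other lemur kinase tested, *Lmtk2*, had a log2 difference of -0.33 ± 0.10, and the klotho genes *Kl* and *Klb* were at most 0.0405 CPM in any sample. *Lctl* overlaps exons of *Zwilch* on the opposite strand, and the strand setting of the counting is not given in the sources used here.

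Matrix and secreted proteins made a second set. *Aspn* (chr13:49544443-49567565) encodes asporin, a small leucine-rich proteoglycan that binds collagen and TGF-β. Its level was 1.64 and 1.06 CPM in CAF-vec and 0.0607, 0.0918 and 0.0717 CPM in CAF-200, 18.1-fold between the means. Other proteoglycans of its class had the opposite sign. Decorin, *Dcn*, was higher in all 3 CAF-200 samples (7.67 and 8.18 CPM against 51.0, 61.5 and 56.7 CPM, log2 difference 2.75 ± 0.11, limma adjusted *p* = 0.000837), and biglycan, *Bgn*, had 2766 and 4038 CPM against 5385, 5123 and 5455 CPM (log2 difference 0.67 ± 0.21, limma adjusted *p* = 0.0573). The genes beside *Aspn* in the same cluster, *Ogn* and *Omd*, had log2 differences of -0.78 ± 0.24 and -0.52 ± 0.47, neither past the thresholds. *Aspn* overlaps exons of *Cenpp* on the opposite strand, which had a log2 difference of 0.61 ± 0.13.

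*Tnxb*, tenascin X, a matrix glycoprotein whose loss causes a form of Ehlers-Danlos syndrome, had 1.94 and 1.61 CPM in CAF-vec and 0.411, 0.453 and 0.413 CPM in CAF-200. Tenascin C, *Tnc*, was at 112 and 90.3 CPM against 102, 97.2 and 112 CPM, so the 2 tenascins differed in their pattern across the samples. *Vwc2* (chr11:11114223-11268931), which encodes the secreted BMP antagonist brorin, had 2.54 and 1.27 CPM in CAF-vec and was listed at 0 in all 3 CAF-200 samples, so no fold is given. It was the one gene in the table with at least 1 CPM in both CAF-vec samples that was at 0 throughout CAF-200, and 0 of 72 ribosomal protein genes were at 0 there. The BMP ligand gene *Bmp4* had 29.1 and 55.1 CPM against 18.4, 26.8 and 17.0 CPM (log2 difference -0.96 ± 0.32, limma adjusted *p* = 0.0677).

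*Pdgfb*, the B chain of platelet-derived growth factor, which acts on pericytes and fibroblasts, had 1.00 and 1.10 CPM in CAF-vec and 0.391, 0.423 and 0.423 CPM in CAF-200. With a 2.55-fold difference of the means it was among the smallest falls and lay nearest to the 1 CPM cut. *Pdgfa* had 163 and 86.0 CPM against 75.8, 62.8 and 71.4 CPM (log2 difference -0.76 ± 0.27, limma adjusted *p* = 0.0817). *Pdgfc* and *Pdgfd* overlapped between the groups. The receptor genes *Pdgfra* and *Pdgfrb* had log2 differences of -0.20 ± 0.13 and -0.25 ± 0.09. None of these 5 genes was called by limma, and neither was *Pdgfb* (log2 difference -0.76 ± 0.14). On this scale *Pdgfb* and *Pdgfa* had nearly the same difference, but the pseudocount shrinks that of *Pdgfb* more, as its values are low. *Galnt15*, an enzyme that starts mucin-type O-glycosylation, had 1.04 and 1.01 CPM against 0.271, 0.372 and 0.203 CPM, and 11 other *Galnt* genes had a median log2 difference of -0.04, with 1 of them, *Galnt17*, called higher.

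Interferon-induced genes were represented by *Ifit3b* and *Ifitm1*, both of antiviral families. *Ifit3b* (chr19:34607970-34613401) had 2.51 and 2.07 CPM in CAF-vec and 0.461, 0.422 and 0.254 CPM in CAF-200. Its near-identical neighbour *Ifit3*, 19239 bases away, had 15.1 and 13.1 CPM against 2.67, 3.08 and 2.63 CPM (log2 difference -2.15 ± 0.13, limma adjusted *p* = 0.00134), a fall of the same kind at a higher level. Reads from these copies could have been split between them, so the values of *Ifit3b* are uncertain. The other *Ifit* genes of the list had smaller differences. *Ifit2* had 45.8 and 49.0 CPM against 32.0, 33.6 and 31.5 CPM (log2 difference -0.54 ± 0.09, limma adjusted *p* = 0.00916), and *Ifit1* overlapped between the groups.

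*Ifitm1* had 1.16 and 1.80 CPM in CAF-vec and 0.241, 0.184 and 0.361 CPM in CAF-200. Of its neighbours in the same cluster, *Ifitm3* had 177 and 257 CPM against 371, 397 and 366 CPM (log2 difference 0.83 ± 0.17, limma adjusted *p* = 0.0190), the opposite sign, and *Ifitm2* had 165 and 472 CPM against 359, 416 and 362 CPM, which overlapped. The interferon regulatory factor gene *Irf7* had a log2 difference of -0.33 ± 0.11.

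A further set consisted of genes of muscle and of the cytoskeleton. *Trim54* (chr5:31116712-31137630), a muscle RING-finger protein of the sarcomere, had 2.40 and 1.67 CPM in CAF-vec and 0.0414, 0.292 and 0.450 CPM in CAF-200, the widest relative spread within CAF-200 of the members above 0. *Mylk3*, the cardiac myosin light chain kinase, had 2.19 and 1.09 CPM against 0.371, 0.442 and 0.274 CPM. The smooth muscle kinase *Mylk* had 6.40 and 5.73 CPM against 4.60, 4.61 and 4.17 CPM (log2 difference -0.40 ± 0.11), and the skeletal form *Mylk2* had 0.531 and 0.719 CPM against 1.55, 1.24 and 2.39 CPM (log2 difference 0.96 ± 0.25, limma adjusted *p* = 0.0351). The differences of *Mylk* and *Mylk2* thus had opposite signs, neither past both thresholds. The sarcomeric partners *Trim55*, *Trim63*, *Myl2* and *Mylk4* were at most 0.0693 CPM in any sample, and *Myl7*, a cardiac myosin light chain, had 0 and 0.0593 CPM in CAF-vec and 0.111, 0.508 and 0.00170 CPM in CAF-200.

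On the smooth muscle and pericyte list 4 of the 9 genes tested were called higher in CAF-200 (*Acta2* 2.63 ± 0.15, *Tagln* 2.94 ± 0.19, *Cnn1* 2.79 ± 0.13 and *Actg2* 2.05 ± 0.18, log2 difference ± SE), where 2.37% of all genes tested were. The paper reports less staining of α-SMA, the *Acta2* protein, in CAF-200, the opposite direction to the *Acta2* RNA here. The median log2 difference of the list was 0.02, with *Lmod1* (-0.12 ± 0.12), *Notch3* (-0.31 ± 0.18) and *Cspg4* (-0.41 ± 0.20) not called and *Myh11* at most 0.0692 CPM in any sample, and the summed level of the list ran from 170 to 182 CPM in CAF-vec, against 1025 to 1135 CPM with miR-200. Of the skeletal muscle list 3 of 10 genes passed the expression filter (summed level 3.17 to 3.30 CPM against 4.54 to 6.85 CPM), with *Myod1*, *Myog*, *Ckm* and *Myh8* at 0 in every sample. Whether these lists bear on *Trim54* and *Mylk3* was not tested.

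*Epb41l4b* (chr4:56991972-57143437), a FERM-domain protein of the band 4.1 family that sits at the cell membrane, had 2.86 and 2.80 CPM in CAF-vec and 0.211, 0.312 and 0.153 CPM in CAF-200, 12.6-fold between the means. *Stxbp6*, amisyn, a SNARE-binding protein of exocytosis, had 4.56 and 1.02 CPM against 0.381, 0.373 and 0.283 CPM. For *Epb41l4b* the CAF-vec samples were nearly equal, whereas for *Stxbp6* they differed 4.49-fold, the largest gap of the 27. The paralogue *Epb41l4a* had 10.4 and 15.1 CPM against 7.51, 7.97 and 7.61 CPM (log2 difference -0.67 ± 0.17, limma adjusted *p* = 0.0330), and the SNARE genes *Snap23* and *Stx4a* had log2 differences of 0.04 ± 0.09 and -0.71 ± 0.09, neither past both thresholds.

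Transcription factors contributed *Nr4a3*, *Dmrt2* and *Eomes*. *Nr4a3*, an orphan nuclear receptor and immediate-early gene, had 1.11 and 1.32 CPM in CAF-vec and 0.282, 0.432 and 0.392 CPM in CAF-200. Its relative *Nr4a2* was called higher (3.85 and 4.34 CPM against 9.55, 8.58 and 12.0 CPM, log2 difference 1.19 ± 0.16, limma adjusted *p* = 0.00709), and *Nr4a1* had 38.9 and 41.3 CPM against 55.5, 46.7 and 67.6 CPM (log2 difference 0.48 ± 0.16, limma adjusted *p* = 0.0758). In all 3 CAF-200 samples *Nr4a3* was below and both relatives were above their CAF-vec values. *Dmrt2*, a DM-domain factor of somite and muscle development, had 1.36 and 1.13 CPM against 0.331, 0.451 and 0.264 CPM. *Eomes*, a T-box factor of mesoderm, cortex and lymphocytes, had 1.09 and 1.28 CPM against 0.181, 0.102 and 0.0620 CPM. Related genes were almost silent throughout: *Tbr1* and *Tbx21* were at most 0.191 CPM and *Dmrt1*, *Dmrt3* and *Dmrta1* at most 0.00975 CPM.

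The remaining members are known from specialised cells. *Mlana*, melan-A, a melanosome protein of pigment cells, had 2.72 and 1.07 CPM in CAF-vec and 0.121, 0.232 and 0.0824 CPM in CAF-200. The melanocyte genes *Dct* and *Tyrp1* were at 0 in every sample, *Tyr* was at most 0.0282 CPM, and the regulator *Mitf* overlapped between the groups. *Gpnmb*, a glycoprotein of melanosomes and lysosomes, was called lower (196 and 206 CPM against 37.3, 37.6 and 33.1 CPM, log2 difference -2.47 ± 0.10, limma adjusted *p* = 0.000837). *Zmynd10*, which is needed for the assembly of dynein arms of motile cilia, had 1.66 and 1.47 CPM against 0.301, 0.113 and 0.222 CPM, while *Dnaaf2* of the same process had 6.52 and 3.45 CPM against 9.23, 8.70 and 8.51 CPM (log2 difference 0.82 ± 0.24, limma adjusted *p* = 0.0518). *Aloxe3*, an epidermal lipoxygenase of the skin barrier, had 1.22 and 1.45 CPM against 0.381, 0.274 and 0.432 CPM, and its pathway partner *Alox12b* was at 0 in every sample.

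*Rnf144b*, a RING-type ubiquitin ligase, had 1.22 and 1.52 CPM in CAF-vec and 0.371, 0.462 and 0.452 CPM in CAF-200, while *Rnf144a* was at 18.4 and 19.6 CPM against 15.6, 18.5 and 15.3 CPM. *3830403N18Rik* (chrX:56136572-56153498), 1 of 2 members on the X chromosome, had 4.31 and 1.95 CPM against 0.301, 0.372 and 0.343 CPM. Per kilobase of exon this gene had the highest level of the 27 in CAF-vec, 3.06 CPM per kb, followed by *Mlana* with 1.79 and *Grpr* with 1.53, and *Tnxb* had the lowest with 0.145. The median was 0.320 CPM per kb. The members lay on 15 chromosomes.

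The plot of the 2 CAF-vec samples shows how far single genes rest on 1 sample. CAF-vec 1 was the higher of the pair for 16 members and CAF-vec 2 for 11, whereas CAF-vec 1 was the higher for 44.0% of the 970 other protein-coding genes at the same CAF-vec level. The values differed over 1.5-fold for 8 members and over 2-fold for 4 (*Stxbp6*, *Mlana*, *3830403N18Rik* and *Mylk3*, 14.8% of the members), where 7.11% of those 970 genes differed over 2-fold. The median ratio of the higher to the lower sample was 1.20 for the members and 1.26 for those 970 genes. In these 4 genes CAF-vec 1 was the higher sample.

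**Figure D4:**
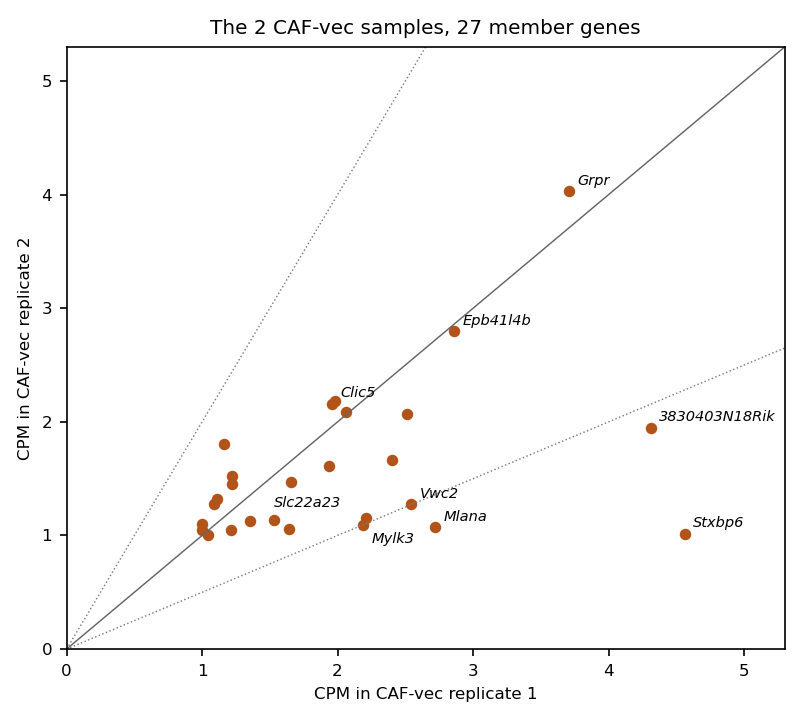
CPM of the 27 genes in CAF-vec replicate 1 (horizontal) and replicate 2 (vertical), 1 point a gene, with the line of equality and dotted lines at 2-fold differences. *Stxbp6*, with 4.56 and 1.02 CPM, lies farthest from equality, and *Grpr*, *Epb41l4b* and *Clic5* lie near it.

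At the cut of 1 CPM in CAF-vec, *Pdgfb* (lower value 1.00 CPM), *Pcdhga2* (1.00) and *Galnt15* (1.01) lay just inside, while *Upk3bl* (0.999), *Cdh26* (0.998) and *Nfkbid* (0.988) lay just outside. At the cut of 0.5 CPM in CAF-200, *Aatk* (highest value 0.492 CPM), *Pcdhga2* (0.482) and *Slc22a23* (0.470) lay just inside, and *Apol7a* (0.501), *Abca13* (0.502) and *Ptprq* (0.511) just outside. The genes on either side differ by less than the replicates of each do. Leaving a sample out removes a condition of the cut, so the number of genes that pass can only stay or rise. Without CAF-vec 1 it was 41 and without CAF-vec 2 it was 77, with all 27 members kept in both.

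**Figure D5:**
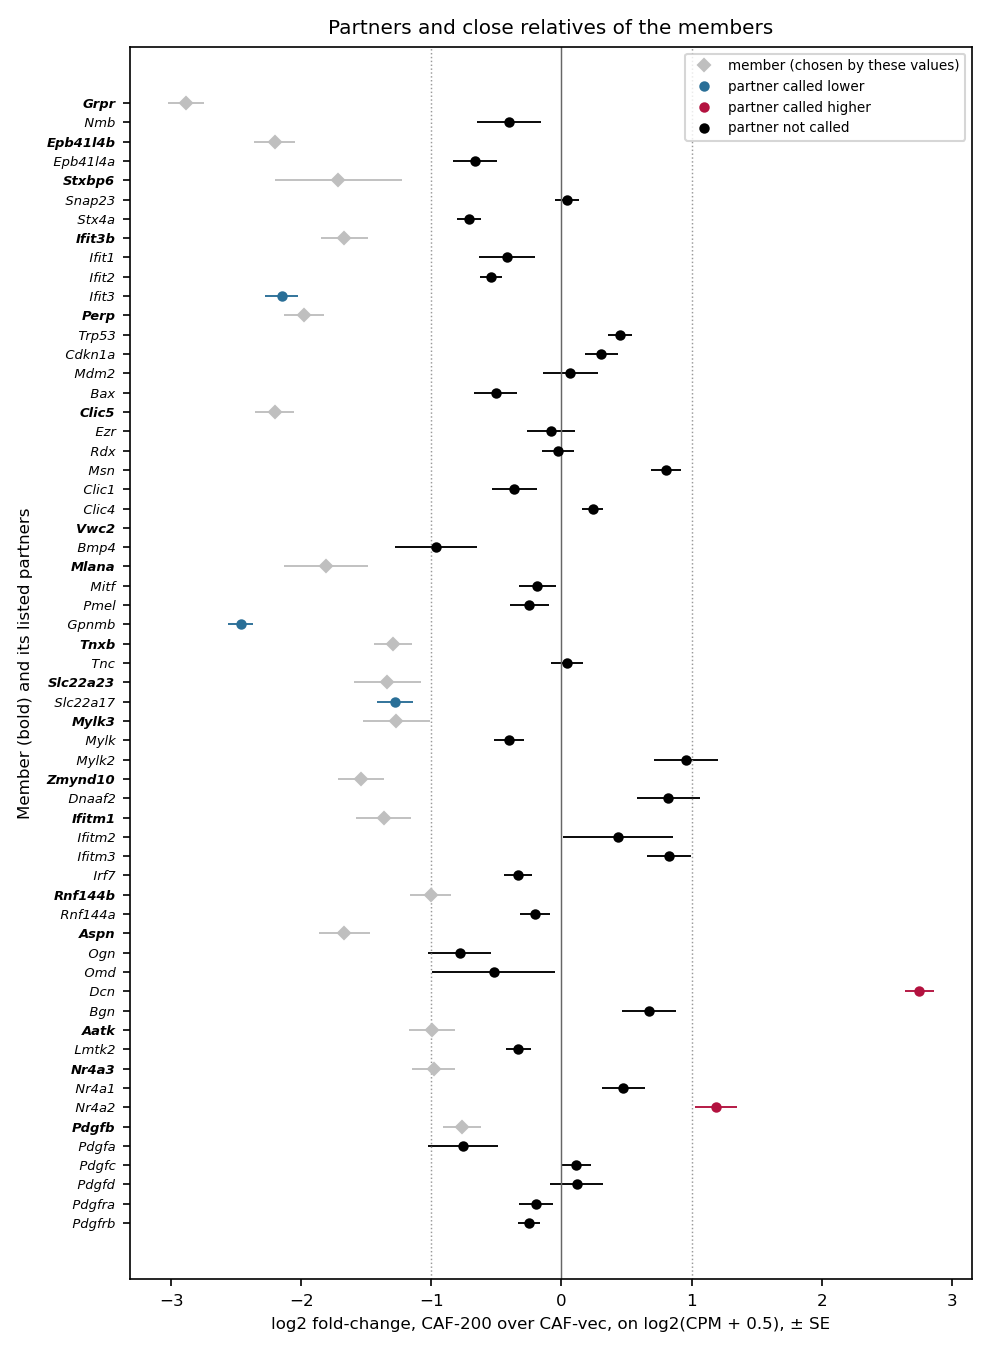
Log2 difference (CAF-200 over CAF-vec on log2(CPM + 0.5), horizontal) with its SE for the 41 tested partners and relatives of the members, listed under each member (bold, grey diamond; *Vwc2*, at 0 in CAF-200, has none). Partners called lower (*Ifit3*, *Gpnmb*, *Slc22a17*) are blue, those called higher (*Dcn*, *Nr4a2*) red, and the others (black) were not called.

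The ligands, receptors, paralogues and pathway partners listed for the members were 73 genes in all, taken from general knowledge once the members were known. Of these, 32 were below the expression filter and 41 were tested. Among those not yet named, the tested *Pmel* had a log2 difference of -0.25 ± 0.15, and *Lmtk3*, below the filter, had 1.07 and 0.497 CPM in CAF-vec and 0.301, 0.263 and 0.203 CPM in CAF-200. *Ecm2* was at most 0.510 CPM and *Slc17a7* at most 0.202 CPM in any sample, and *Slc17a8*, *Tnn*, *Tnr*, *T*, *Vwc2l*, *Bmp2*, *Alox5*, *Alox12*, *Alox15*, *Lrrc6* and *Dnaaf1* were at most 0.139 CPM. Limma called 3 of the 41 lower (7.32%, beside 2.35% of all genes tested) and 2 higher (4.88%, beside 2.37%), and the median log2 difference was -0.20. Without CAF-vec 1 the called numbers were 6 and 3, without CAF-vec 2 they were 4 and 4, and without CAF-200 1, 2 or 3 limma called 0 in either direction, with 8, 9 and 6 lower and 7, 8 and 7 higher at an unadjusted *p* under 0.05. Genes that share the letters of a member's symbol (25 members have such a root) gave a wider view: 333 were tested, 6 were called lower (1.80%) and 4 higher (1.20%). The lower ones were *Ifit3* and the solute carriers or carrier-associated genes *Slc9a3r1* (-1.66 ± 0.22), *Slc22a17*, *Slc4a3* (-1.15 ± 0.15), *Slc46a3* (-1.15 ± 0.17) and *Slc16a10* (-1.03 ± 0.11). The higher ones were *Slc8a1* (1.90 ± 0.15), *Slc4a4* (1.63 ± 0.14), *Galnt17* (1.61 ± 0.15) and *Trim44* (1.19 ± 0.14). Without CAF-vec 2 these counts were 27 and 12, and limma called 0 without any single CAF-200 sample (77 to 85 lower and 29 to 33 higher at an unadjusted *p* under 0.05).

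The genes beside the members on the chromosome were read next, 3 tested genes on each side. Of 162 such neighbours limma called 4 lower (2.47%) and 2 higher (1.23%), and of the 54 nearest neighbours 1 lower and 1 higher. The lower ones were *Ifit3* by *Ifit3b*, *Abca13* by *Vwc2* (-1.18 ± 0.15), *Vldlr* by *Dmrt2* (-1.27 ± 0.16) and *Gas2* by *Slc17a6* (-1.11 ± 0.11). *C4b*, a complement component gene 8565 bases from *Tnxb*, was higher, with 0.229 and 0.751 CPM in CAF-vec and 3.45, 4.63 and 3.54 CPM in CAF-200 (log2 difference 2.19 ± 0.27, limma adjusted *p* = 0.00522), the opposite of *Tnxb* itself, and *Fignl1* by *Vwc2* was also higher (1.05 ± 0.08). Without CAF-vec 1 the counts were 8 and 2 and without CAF-vec 2 they were 8 and 9, and without any single CAF-200 sample limma called 0 (45 to 49 lower and 20 or 21 higher at an unadjusted *p* under 0.05).

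Promoter windows from 250 bases before to 50 after the start (RefSeq) were found for 22 of the 27 members, 28 windows in all, and were searched on both strands. The AP-1 motif TGANTCA was in 4 windows (14.3%; *Galnt15*, *Ifit3b*, *Tnxb* and *Trim54*), beside 7.81% of all 32851 windows and 5.14% of those of genes tested. The ZEB-type E-box CAGGTG was in 3 (10.7%; *Rnf144b*, *Slc22a23* and *Vwc2*) beside 20.2% and 16.9%, and the TEAD motif GGAATG in 3 beside 14.7% and 12.0%. TATAAA was in 3 windows (10.7%; *Aspn*, *Rnf144b* and *Zmynd10*) beside 13.6% and 6.90%. The GC box GGGCGG was in 9 windows (32.1%), beside 35.7% of all windows and 63.0% of those of genes tested. These shares rest on few windows and were not tested, and a match is not a bound site.

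No member stood on any of the marker lists for cell types that a lung culture could hold. The counts of these lists stand beside 2.35% of all genes tested called lower and 2.37% called higher. Of the fibroblast list 11 genes were tested and 3 were called higher (*Dcn*, *Lum* 2.82 ± 0.14 and *Thy1* 1.46 ± 0.13), at a summed level of 13479 to 17332 CPM against 10862 to 11848 CPM. On the lung epithelium list *Aqp5* (-3.48 ± 0.17) was called lower of 4 tested, at a summed level of 62.0 to 63.5 CPM against 39.8 to 45.0 CPM, with *Krt18*, *Sftpc*, *Sftpa1* and *Nkx2-1* at 0. The mesothelium list had 1 of 7 genes tested, *Msln* (-1.97 ± 0.18), called lower (summed level 5.92 to 6.98 CPM against 1.15 to 1.62 CPM), with *Lrrn4*, *Calb2* and *Krt14* at 0. On the adipocyte and lipid droplet list *Plin4* (-3.11 ± 0.17) was called lower of 9 tested (summed 385 to 460 CPM against 264 to 299 CPM), and *Adipoq* was at most 0.0712 CPM. The part of these cell types in the members' falls was not tested.

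On the leukocyte list *Lyz2* (1.91 ± 0.21) was called higher of 4 tested (summed 13.6 to 15.1 CPM against 15.6 to 16.7 CPM, 8 of 16 at 0), and on the Schwann and neural list *Tubb3* (2.09 ± 0.11) of 4 (11.0 to 12.6 CPM against 24.9 to 26.4 CPM, *Sox10* at 0). The endothelium list had 1 tested gene (summed 0.506 to 1.06 CPM against 1.26 to 1.88 CPM), which was not called. Of 24 published miR-200 targets tested, 3 were called lower (*Edn1* -1.49 ± 0.21, *Tgfb2* -1.37 ± 0.11 and *Kdr* -1.26 ± 0.19), where 2.35% of all genes tested were. *Zeb1* and *Zeb2* had log2 differences of -0.36 ± 0.11 and -0.23 ± 0.19. *Nrp2* had 92.8 and 91.2 CPM in CAF-vec and 52.2, 51.4 and 50.8 CPM in CAF-200, lower in all 3 without reaching the fold threshold (log2 difference -0.83 ± 0.08, limma adjusted *p* = 0.00305). Over all lists 6 genes were called lower and 9 higher. Without CAF-vec 2 these counts were 10 and 11, and limma called 0 without any single CAF-200 sample (16 or 17 lower and 15 or 16 higher at an unadjusted *p* under 0.05).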

How the data were processed

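RNA of 2 CAF-vec and 3 CAF-200 samples (stranded mRNA kit) is analysed here, while the study's methods describe triplicate extraction for both groups. The deposited values are CPM in a table named for TMM; the submitters' processing notes name FastQC, cutadapt, Trimmomatic, STAR, RSEM and edgeR with GRCm38 (mm10), and settings and order are not given in the sources used here. Between 0.2 and 0.5 CPM at most 63.3% of a sample's values were whole multiples of 1 step (within 0.05 steps), so no count test was run, and 0 columns of sample values were left out.

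CAF-200 was compared with CAF-vec by limma 3.58.1 (R 4.3.3, lmFit and eBayes with a trend) on log2(CPM + 0.5). The fit takes the same spread for both groups, while replicates spread wider in CAF-vec, so SE and *p* values may be too small. The 12175 genes that reached 0.5 CPM in 2 or more samples entered, *p* values were adjusted after Benjamini-Hochberg, and calls needed both an adjusted *p* below 0.01 and an absolute log2 difference above 1. Over all genes 286 were called lower and 289 higher (228 and 365 after centring on sample medians). The fit was also run on data drawn with known changes of 2 log2 units and equal spread in both groups. Over 20 runs it recovered a median 97.5% of the changed genes, with at most 3 false calls. The wider spread of CAF-vec was not drawn, so its effect on the calls was not tested.

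The 27 members and all lists were chosen with earlier results of these data known, and partners after the members' names; 1 further gene was left out of the partner list and is not analysed here. Every member is named. Named non-members are partners, genes past both thresholds among relatives, neighbours and lists (at most 10 each way), the defining gene of each list, and genes nearest each cut. Named outside that, after their values were seen, were *Fap*, *Lmod1*, *Notch3*, *Cspg4*, *Myh11*, *Zeb2*, *Nrp2*, marker genes at or near 0, and *Cenpp* and *Zwilch*, which overlap a member. *Pdpn*, *Krt7*, *Cd14*, *Csf1r* and *Cd68* were also named in this way. Roles are background knowledge. Gene models are GENCODE M21. Overlap with an antisense gene was found for *Lctl*, *Trim54*, *Tnxb*, *Zmynd10*, *Aspn* and *Eomes*. Python 3.11.15, pandas 2.3.3, numpy 2.4.6 and matplotlib 3.10.9 were used. Alternatives were other pseudocounts, filters, scalings and cuts, no trend, each sample left out, and the replicate number as a block.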

Additional observations from a re-analysis of the deposited data

How the results depend on the processing

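All 408 alternative values of the 32 called non-members kept their direction, and that of the members is fixed by the cut. Of the 36 tested partners that were not called, 7 changed sign under 1 or more alternatives (*Ezr*, *Ifitm2*, *Mdm2*, *Omd*, *Pdgfd*, *Rdx* and *Tnc*), and of the 55 listed genes not called 15 did, *Zeb2* among them (0.08 without CAF-vec 1). *Ifitm2* was at -0.32 without CAF-vec 1, and without CAF-vec 2 *Mdm2* was at -0.28 and *Omd* at 0.31. Counts of calls did not keep their size. In the order genes lower and higher over all genes tested, relatives, listed genes, neighbours and partners, then members called, the reported numbers were 286 and 289, 6 and 4, 6 and 9, 4 and 2, 3 and 2, and 17. With no expression filter they were 19 and 27, 0 and 0 (limma; 105 and 40 at an unadjusted *p* under 0.05), 0 and 2 (19 and 14 unadjusted), 0 and 1 (52 and 25 unadjusted), 1 and 1, and 3. At a filter of 1 CPM in every sample, which no member passes, 1 relative and 1 neighbour were called higher. A pseudocount of 1 left 11 members called, beside 245 genes lower over all genes tested. Leaving out 1 sample at a time gave 0 to 955 and 0 to 625 over all genes, 0 to 27 and 0 to 12 relatives, 0 to 10 and 0 to 11 listed genes, 0 to 8 and 0 to 9 neighbours, 0 to 6 and 0 to 4 partners, and 0 to 22 members. Calls fell to 0 or 1 without any single CAF-200 sample (over all genes 2316 to 2552 lower and 1505 to 1558 higher at an unadjusted *p* under 0.05). With 1 CAF-vec sample left, that sample is assumed to vary like CAF-200. Without the symbol roots Slc, Trim and Rnf, an alternative chosen after seeing the data, 1 relative was called lower and 1 higher. Partners and neighbours were also chosen after seeing the data.

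The members' median log2 difference of -1.46 was -0.97 with a pseudocount of 1 and -2.34 with 0.1, and -1.65 to -1.29 with 1 sample left out. The number of members, 27, was 25 after quantile normalization (23 of them shared) and 23 after centring. It was 109 with a CAF-vec cut of 0.5 CPM, 4 with 2 CPM, 7 with a CAF-200 cut of 0.25 CPM and 112 with 1 CPM. With 1 sample left out, where the number can only stay or rise, it was 32 to 77. For seed matches, the 8-base match gave 3.70% in place of 25.9%, and for GGGCGG the promoters of genes tested gave 63.0% in place of 35.7%. The cause was not tested.

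In a fit with replicate block, 70 genes were called lower and 101 higher over all genes, 2 and 0 relatives (limma; 32 higher at an unadjusted *p* under 0.05), 3 and 8 listed genes, 1 and 1 neighbours, 2 and 1 partners, and 4 members. With each group centred on its mean, CAF-vec 1 correlated across genes with CAF-200 1 at 0.249. CAF-vec 2 correlated with CAF-200 2 at 0.134 and with the unmatched CAF-200 3 at 0.119. The deviations of 2 CAF-vec samples mirror each other, so these values are not separate and cannot show that same-numbered samples go together. With 2 pairs the samples share only a number, and CAF-200 3 has no partner. Read totals are not given in the sources used here, so the counting error of the low CAF-200 values rests on taking a step of the low values as 1 read.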
